A study of Mus musculus with 4 samples.

Results

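TGF-beta and BMP signalling genes, 49 genes that encode the ligands, latency proteins, receptors, antagonists, SMADs and SMAD corepressors of the TGF-beta family, were followed through the first days of adipogenesis in brown preadipocytes with and without MLL4. The genes were chosen by name, from what they encode, and not by any measured value, though earlier results of these data were known. Each was represented by its RefSeq transcript with most reads over the libraries. All 49 were found among the 22463 gene symbols of the data. Of these, 37 were expressed, meaning that their RPKM (reads scaled to exon length and to mapped reads) was above 1 on at least 1 of the days in Ad-GFP cells, against 11541 of all symbols. Loci are given in NCBI37/mm9, and each value covers all exons of a transcript, UTRs included.

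The cells were brown preadipocytes, precursors of brown fat cells, isolated at E18.5 from C57BL/6J embryos with the genotype *Mll3*-/- *Mll4* f/f and immortalized with SV40T. Adenovirus carrying GFP (Ad-GFP) left floxed *Mll4* in place and gave *Mll3*-/- cells, and adenovirus carrying the Cre recombinase (Ad-Cre) gave *Mll3*-/- *Mll4*-/- cells. MLL3 was therefore missing from every library, including those that the labels call WT. MLL3 and MLL4 are methyltransferases of histone H3 lysine 4. RNA was sequenced at day 0, when cells were confluent and not yet induced, and at day 2 of adipogenesis, under insulin, T3, indomethacin, dexamethasone and IBMX, so that time and these agents cannot be told apart. Each of the 4 conditions has 1 library, so differences could not be checked against replicates and p-values are not given. A ratio is followed by its exact binomial 95% confidence interval, which covers counting error of the reads only and compares libraries, not conditions.

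Ligands of this family are secreted as dimers, and TGF-betas are held in a latent complex by LTBPs, proteins of the extracellular matrix. An active ligand brings together type II and type I receptors, which are serine/threonine kinases. The type I receptor then phosphorylates receptor-regulated SMADs, SMAD2 and SMAD3 for TGF-betas and activins, and SMAD1, SMAD5 and SMAD9 for BMPs, and these enter the nucleus with SMAD4. SMAD6 and SMAD7 are induced by the pathway and inhibit it. TGF-beta and activin are known to hold back the differentiation of preadipocytes in culture, while several BMPs are known to promote commitment to the adipose lineage, BMP7 to brown fat in particular.

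The deposited counts summed to between 15831915 and 22099995 reads per library, so that 3 reads, the upper limit that a count of 0 allows, stood for 0.136 to 0.189 RPM (reads scaled to the library total). *Kmt2d*, the gene of MLL4, had 18.5 and 18.7 RPKM in the Ad-GFP libraries of day 0 and day 2, and 16.3 and 15.6 RPKM in those of Ad-Cre. The count covers the whole transcript, of which Cre removes only a few exons, and therefore does not check the deletion. The paper checked it by RNA-Seq reads over the targeted exons, by qRT-PCR and by immunoprecipitation of the MLL4 complex. All 9 expressed adipocyte markers of a list of 10 were over 2.5-fold higher at day 2 in both kinds of cells, and at day 2 all 9 were over 2.5-fold lower with Ad-Cre. Their summed level was 37.6 and 2374 RPKM at day 0 and day 2 with Ad-GFP and 20.8 and 575 RPKM with Ad-Cre, while *Ucp1* had at most 1 read in a library. Markers of endothelial cells summed to at most 0.345 RPKM and those of skeletal muscle to at most 0.0658 RPKM. The 5 macrophage markers found summed to at most 2.58 RPKM, nearly all of it *Cd14*, with *Ptprc* and *Emr1* at 0 reads. Of 6 smooth muscle and pericyte markers 4 were expressed, and the 6 summed to 1125 and 26.2 RPKM at day 0 and day 2 with Ad-GFP and to 3213 and 357 RPKM with Ad-Cre. The threshold uses Ad-GFP cells alone, so *Myh11*, with 10.8 RPKM in Ad-Cre cells of day 0, was not counted as expressed. Of 7 preadipocyte markers, all expressed, 4 were lower at day 2 with Ad-GFP (*Cd34*, *Dlk1*, *Pdgfra* and *Thy1*, median log2 ratio of the 7 −1.46) and 4 were lower with Ad-Cre at day 0 (*Cd34*, *Dlk1*, *Ly6a* and *Pdgfra*, median −2.92). From day 0 to day 2 with Ad-Cre, 2 of the 7 were higher (*Cd34* and *Ly6a*) and 2 lower (*Pdgfrb* and *Thy1*), with a median of 0.82. The ratio of *Ly6a* there rested on 4 and 13 reads. The 7 summed to 630 and 162 RPKM at day 0 and day 2 with Ad-GFP and to 331 and 141 RPKM with Ad-Cre. The part of the adipocyte, preadipocyte and smooth muscle markers in the values that follow was not tested, and in RNA of whole cultures fewer cells of a type and less RNA per cell cannot be told apart.

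Ratios that use the Ad-Cre library of day 2 ran with transcript length and GC content. Over quintiles of expressed genes from the shortest to the longest, the median of the log2 ratios of Ad-Cre over Ad-GFP at day 2 ran from 0.38 to −0.68, and over quintiles from the lowest to the highest GC content from −0.66 to 0.49. At day 0 the same medians stayed between −0.15 and 0.05. From day 0 to day 2 with Ad-GFP they ran over GC content from 0.32 to −0.10, and stayed between 0.11 and 0.18 over length. Ratios were therefore also divided by their trends over length and GC, and that value is called the adjusted ratio. It is given beside a ratio stated below where it ended or made a call or differed by over 1.5-fold. Ratios that are not stated can differ as much. That of *Id3* from day 0 to day 2 with Ad-Cre was −0.07 on the log2 scale and −0.99 adjusted. In addition, edgeR's TMM factors shifted all log2 ratios between the cells at day 2 by 0.18, which put the median of all expressed genes at 0.02 in place of −0.16, and those from day 0 to day 2 with Ad-GFP by −0.10.

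**Figure D1:**
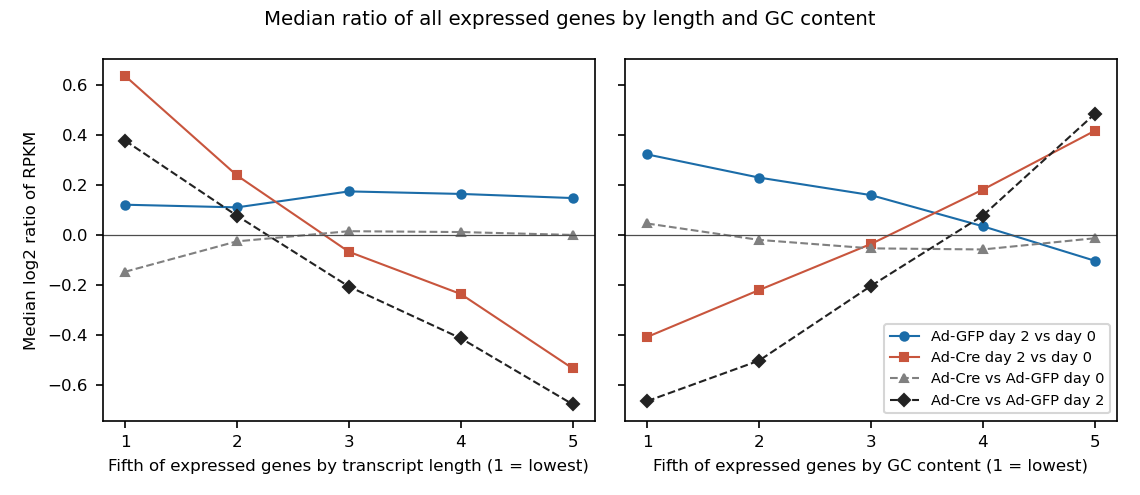
Median log2 ratio of RPKM over all expressed genes (vertical axis) in each quintile of transcript length (left) and GC content (right), where 1 is the shortest or lowest. Lines are the 4 comparisons, and both that use the Ad-Cre library of day 2 slope over length, from 0.38 to −0.68 between the cells at day 2.

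From day 0 to day 2 with Ad-GFP, more of these genes were lower than higher. A gene was called where its ratio passed 2.5-fold, the cutoff used in the study. By this cutoff 2 of the 37 expressed genes were higher, *Gdf15* and *Tgfbr3*, where 8.38% of all expressed genes were higher. There were 11 lower (*Bmp4*, *Eng*, *Fstl3*, *Gdf11*, *Grem1*, *Inhba*, *Ltbp2*, *Smad6*, *Smad7*, *Tgfb1* and *Tgfb3*), where 12.7% of all expressed genes were lower. The median log2 ratio was −0.22 over the 37 genes and 0.15 over all expressed genes.

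With Ad-Cre, 4 of the 37 genes were higher at day 2 (*Acvr2b*, *Fst*, *Fstl1* and *Tgfbr3*), beside 8.66% of all expressed genes. The 12 that were lower, beside 10.0% of all expressed genes, were *Acvr1*, *Bmp4*, *Bmpr2*, *Fstl3*, *Grem1*, *Inhba*, *Inhbb*, *Ltbp2*, *Skil*, *Smad9*, *Tgfb1* and *Tgfb3*. The median log2 ratio was −0.997 over the 37 genes and −0.01 over all expressed genes, and the median of the adjusted ratios was −0.48.

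**Figure D2:**
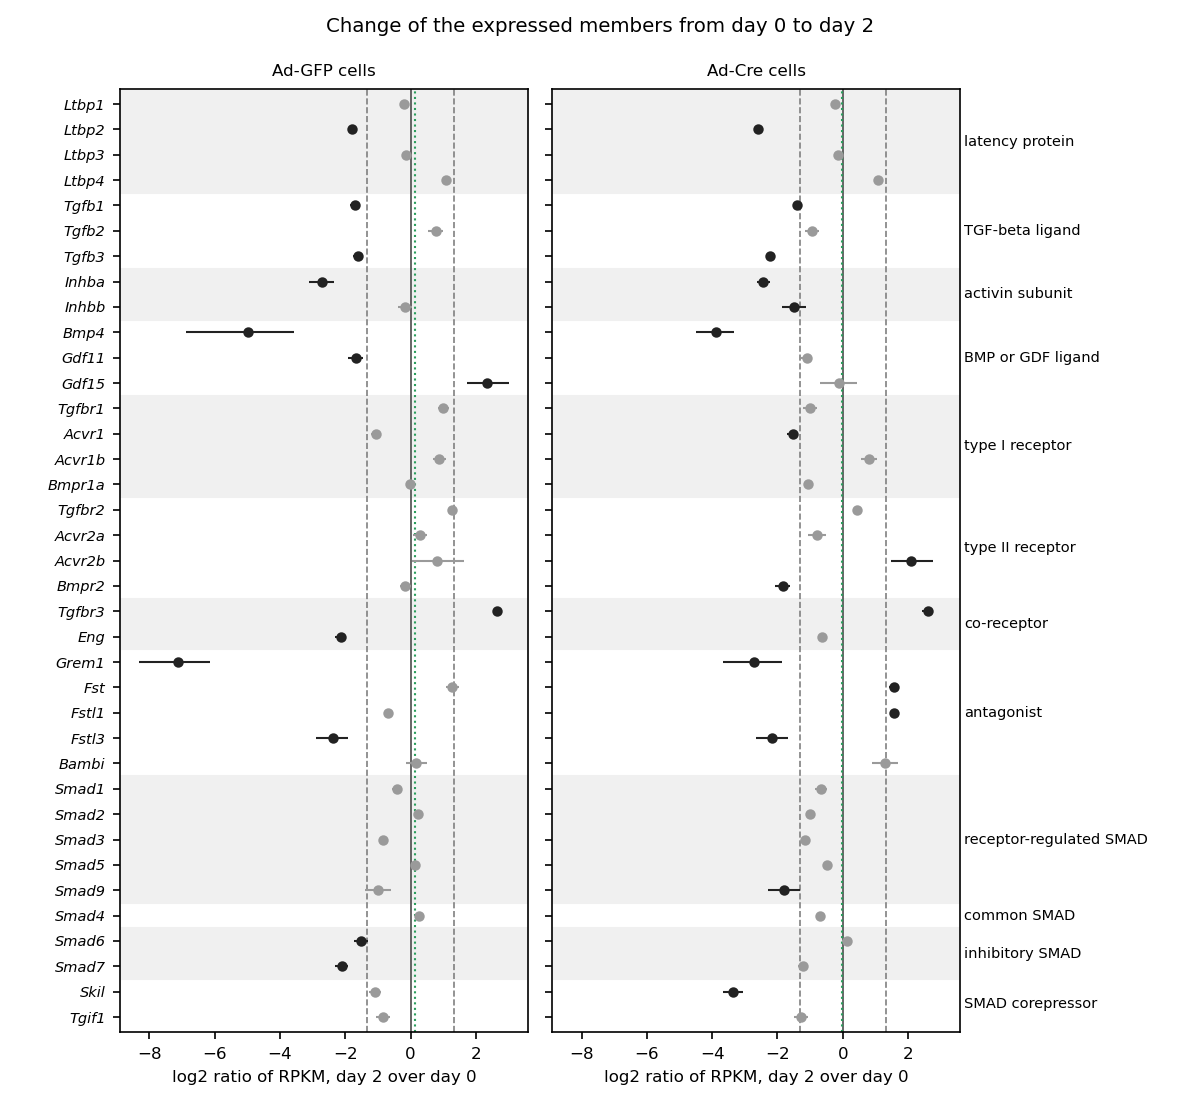
Log2 ratio of RPKM at day 2 over day 0 (horizontal axis) for the 37 expressed genes, in Ad-GFP cells (left) and Ad-Cre cells (right), with bars for the 95% interval of counting error. Black points are past 2.5-fold (dashed lines), grey points are not, the dotted line is the median of all expressed genes, and *Grem1* lies farthest left with Ad-GFP at −7.11.

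The deletion of *Mll4* was compared at each day. At day 0, 4 of the 37 genes were higher with Ad-Cre (*Bmp4*, *Inhba*, *Ltbp2* and *Tgfb3*), where 1.27% of all expressed genes were higher. *Grem1* and *Tgfbr3* were lower, 2 of 37, where 4.12% of all expressed genes were lower. At day 2, 8 were higher (*Acvr2b*, *Bmp4*, *Eng*, *Fstl1*, *Inhba*, *Ltbp2*, *Smad6* and *Smad7*) beside 8.14% of all expressed genes, and 7 were lower (*Bmpr2*, *Gdf15*, *Inhbb*, *Skil*, *Tgfbr1*, *Tgfbr2* and *Tgfbr3*) beside 10.1%. The median log2 ratio was 0.25 at day 0 and −0.30 at day 2, against −0.02 and −0.16 over all expressed genes. All 6 calls at day 0 held under every scaling tried, but 7 of the 15 calls at day 2 did, those of *Ltbp2*, *Inhba*, *Tgfbr2*, *Tgfbr3*, *Eng*, *Fstl1* and *Smad6*. Genes above 1 RPKM with Ad-Cre alone, such as *Nog* (1.63 RPKM at day 0), are outside these counts and the shares beside them. The 4 comparisons share libraries with one another and are not independent.

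**Figure D3:**
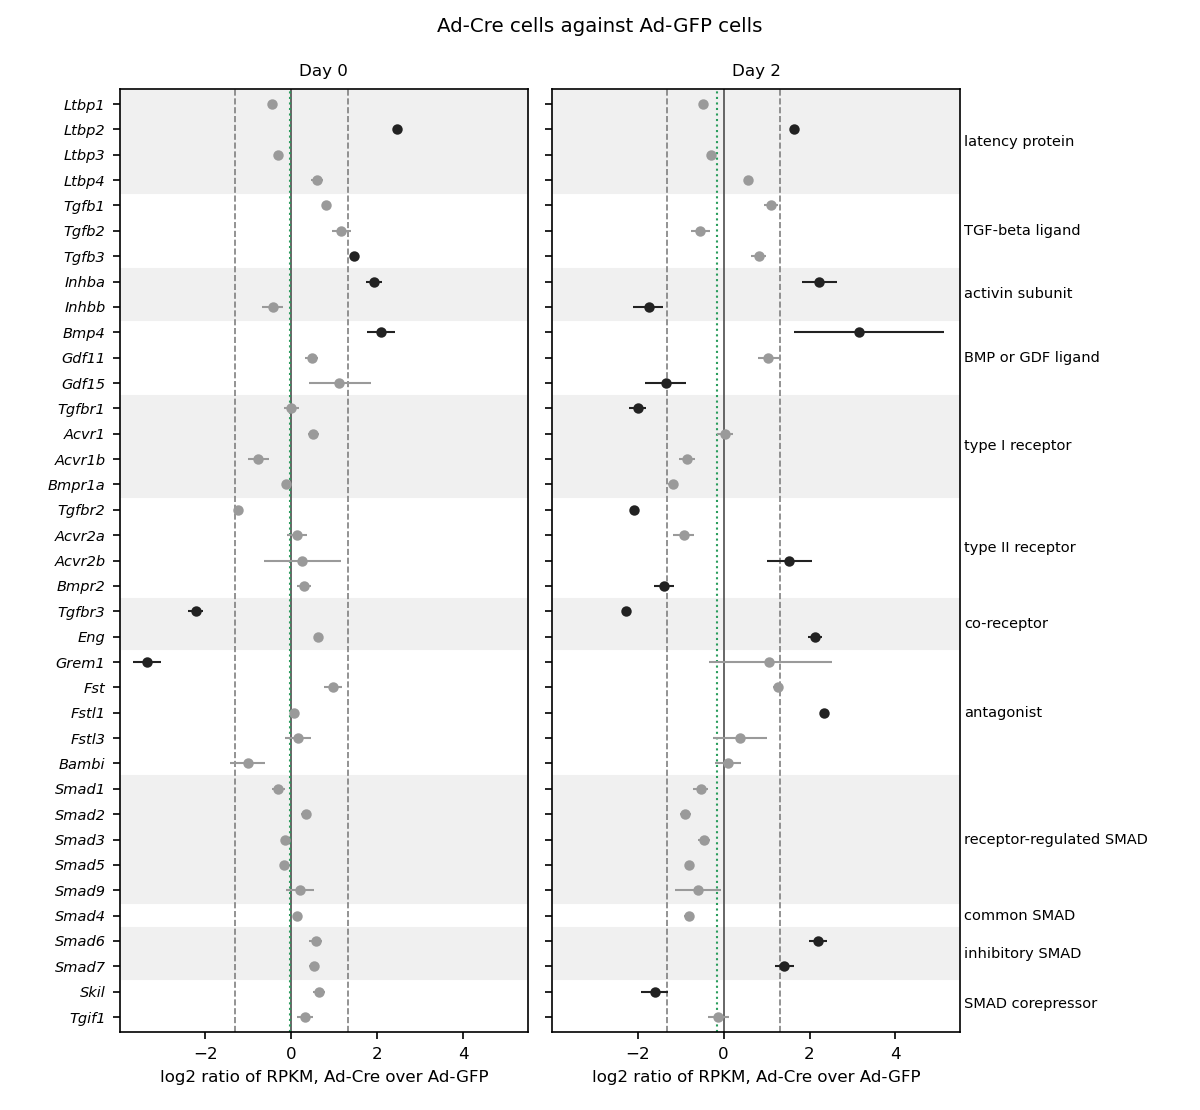
Log2 ratio of RPKM in Ad-Cre over Ad-GFP cells (horizontal axis) for the 37 expressed genes at day 0 (left) and day 2 (right), with bars for the 95% interval of counting error. Black points are past 2.5-fold (dashed lines), grey points are not, the dotted line is the median of all expressed genes, and *Ltbp2*, *Inhba* and *Bmp4* lie right of the upper cutoff on both days.

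*Ltbp2*, *Inhba* and *Bmp4* were the genes past the cutoff toward Ad-Cre on both days, *Smad6* was the inhibitory SMAD with the higher ratio at day 2, and *Tgfbr2* was the receptor kinase with the lowest ratio at day 2. Their promoters are shown for that reason, as the bases upstream of the start site in RefSeq promoter sequences of GRCm38.p6, each of which matched its chromosome of NCBI37/mm9 exactly once. They lie at chr12:86217483-86217691 (minus strand, *Ltbp2*), chr13:16103434-16103683 (plus strand, *Inhba*), chr14:47010345-47010594 (minus strand, *Bmp4*), chr9:63869867-63870116 (minus strand, *Smad6*) and chr9:116084482-116084731 (minus strand, *Tgfbr2*). Each runs from 5′ to 3′ toward the start site, and capitals mark CAGAC, the SMAD half-site with its flank, or the C/EBP palindrome TTGCGCAA, on either strand.
Ltbp2: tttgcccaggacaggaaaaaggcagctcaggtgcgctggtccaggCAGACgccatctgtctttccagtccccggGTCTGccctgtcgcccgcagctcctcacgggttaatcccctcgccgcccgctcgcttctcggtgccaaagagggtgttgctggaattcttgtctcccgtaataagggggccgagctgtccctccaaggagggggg
Inhba: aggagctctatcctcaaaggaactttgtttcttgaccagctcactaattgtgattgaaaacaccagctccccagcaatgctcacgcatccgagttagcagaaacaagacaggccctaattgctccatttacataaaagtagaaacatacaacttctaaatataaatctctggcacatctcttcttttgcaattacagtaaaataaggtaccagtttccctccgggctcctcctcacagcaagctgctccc
Bmp4: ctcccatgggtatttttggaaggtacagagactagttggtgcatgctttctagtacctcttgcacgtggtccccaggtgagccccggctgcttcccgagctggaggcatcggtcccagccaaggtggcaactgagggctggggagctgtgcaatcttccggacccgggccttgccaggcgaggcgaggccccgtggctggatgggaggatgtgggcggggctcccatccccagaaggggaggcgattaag
Smad6: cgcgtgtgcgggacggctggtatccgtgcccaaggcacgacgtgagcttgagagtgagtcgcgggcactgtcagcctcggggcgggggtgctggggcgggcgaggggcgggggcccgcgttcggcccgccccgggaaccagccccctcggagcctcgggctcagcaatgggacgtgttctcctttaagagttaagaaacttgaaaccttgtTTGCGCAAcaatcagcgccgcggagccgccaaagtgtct
Tgfbr2: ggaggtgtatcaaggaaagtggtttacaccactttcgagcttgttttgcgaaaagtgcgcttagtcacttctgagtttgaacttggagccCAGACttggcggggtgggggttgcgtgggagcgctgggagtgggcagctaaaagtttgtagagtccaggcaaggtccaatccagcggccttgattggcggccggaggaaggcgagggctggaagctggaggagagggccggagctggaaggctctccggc
Each promoter has 250 bases except that of *Ltbp2*, which has 209 because 41 bases inside its annotated first exon were left out, and the *Tgfbr2* start site lies 98 bases upstream of the annotated one. CAGAC stood at −205 and, on the other strand, at −176 of *Ltbp2* and at −160 of *Tgfbr2*, counted from the RefSeq start site. It is a common word, held by 42.2% of all 32851 promoters and by 23 of the 47 promoters of these genes. TTGCGCAA stood at −39 of *Smad6*, the single gene of the 34 with a promoter in the table to hold it, and is held by 0.164% of all promoters. The SMAD palindrome GTCTAGAC and the AP-1 site TGACTCA, held by 0.167% and 4.46% of all promoters, were in none of the 47. The GC-rich SMAD site GGCGCC was in 9 of the 47, beside 9.59% of all promoters, and the TEAD site GGAATG was in 1, that of *Gdf15*, beside 12.6%. These matches, searched on both strands, describe letters in a window and say nothing of binding.

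Of the latency proteins, *Ltbp2* differed by far the most and was higher with Ad-Cre on both days. *Ltbp2* (NM_013589, chr12:86124162-86217482), a matrix protein that unlike its relatives does not bind latent TGF-beta covalently, had 27.2 RPKM in Ad-GFP cells at day 0, 7.81 in Ad-GFP cells of day 2, 149 in Ad-Cre cells of day 0 and 24.5 in Ad-Cre cells of day 2. The Ad-Cre library of day 0 was the highest, and the Ad-Cre library of day 2 stood near the Ad-GFP library of day 0. Ad-Cre cells had 5.49-fold more at day 0 (log2 ratio 2.46, 2.40 to 2.51) and 3.14-fold more at day 2 (1.65, 1.55 to 1.75). Its log2 ratio from day 0 to day 2 was −1.80 (−1.90 to −1.70) with Ad-GFP and −2.61 (−2.66 to −2.55) with Ad-Cre. An opposite-strand transcript, D030025P21Rik, overlaps 9.33% of its exon bases, and the counting is not stated to use strand.

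*Ltbp3* (chr19:5740904-5758532), which holds latent TGF-beta in the matrix, had the highest level of the LTBPs in 3 of 4 libraries, with 69.3 and 62.3 RPKM at day 0 and day 2 with Ad-GFP and 55.8 and 50.5 RPKM with Ad-Cre. These 4 values lay within 1.5-fold of one another. *Ltbp1*, the founding member of the family, ranged from 8.95 to 14.5 RPKM and passed the cutoff in no comparison. *Ltbp4*, which is needed for elastic fibres, had 2.13-fold more at day 2 with Ad-GFP and 2.10-fold more with Ad-Cre, short of the cutoff in both, and the adjusted log2 ratio with Ad-GFP was past it at 1.36. For *Ltbp1* and *Ltbp3* the sign of the ratio between the cells at day 2 depended on the scaling.

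*Tgfb1* and *Tgfb3* were lower at day 2 in both kinds of cells. *Tgfb1* (NM_011577, chr7:26472021-26490096), the main TGF-beta of most tissues, had 31.5 and 9.76 RPKM at day 0 and day 2 with Ad-GFP and 55.3 and 20.9 RPKM with Ad-Cre. The Ad-Cre library was the higher on each day. The log2 ratio of day 2 over day 0 was −1.69 (−1.85 to −1.54) with Ad-GFP and −1.40 (−1.52 to −1.28) with Ad-Cre, where the adjusted one was −2.11. Ad-Cre cells had 1.75-fold more *Tgfb1* at day 0 (log2 ratio 0.81, 0.71 to 0.91) and 2.14-fold more at day 2, both short of the cutoff, and the adjusted log2 ratio at day 2 was 0.32. *Tgfb3* (NM_009368, chr12:87397694-87419991), expressed mainly by mesenchymal cells, had 19.2 and 6.35 RPKM with Ad-GFP and 52.7 and 11.2 RPKM with Ad-Cre, so that the Ad-Cre library of day 0 stood highest. Between the cells its log2 ratio was past the cutoff at day 0 (1.46, 1.36 to 1.55) and short of it at day 2 (0.82, 0.65 to 0.99). In time it was −1.60 (−1.75 to −1.44) with Ad-GFP and −2.24 (−2.36 to −2.12) with Ad-Cre.

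*Tgfb2* (chr1:188447065-188529871) was the lowest of the TGF-beta ligands in 4 of 4 libraries. It had 2.71 and 4.60 RPKM at day 0 and day 2 with Ad-GFP and 6.06 and 3.17 RPKM with Ad-Cre. The value of day 2 was above that of day 0 in the Ad-GFP libraries (log2 ratio 0.77, 0.53 to 1.00) and below it in the Ad-Cre libraries (−0.94, −1.15 to −0.72), and no ratio of *Tgfb2* passed the cutoff.

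Among the activin subunits, *Inhba*, which encodes the subunit of activin A, was higher with Ad-Cre on both days. *Inhba* (NM_008380, chr13:16103684-16119044) had 12.4 and 1.88 RPKM at day 0 and day 2 with Ad-GFP (325 and 66 reads) and 46.9 and 8.70 RPKM with Ad-Cre (1398 and 240 reads). On both days the Ad-Cre library was the higher, and both libraries of day 2 were below those of day 0. Between the cells the log2 ratio at day 0 was 1.92 (1.75 to 2.10), and that at day 2 was 2.21 (1.81 to 2.63), or 1.60 adjusted. In time it was −2.72 (−3.12 to −2.33) with Ad-GFP and −2.43 (−2.63 to −2.23) with Ad-Cre, where the adjusted one was −3.03. *Inhbb* (NM_008381, chr1:121312042-121318825), the subunit of activin B, had 4.17 and 3.71 RPKM with Ad-GFP and 3.10 and 1.11 RPKM with Ad-Cre, and the last library (85 reads) stood apart. The log2 ratio to that library was −1.48 (−1.85 to −1.12) from Ad-Cre cells of day 0 and −1.74 (−2.10 to −1.40) from Ad-GFP cells of day 2. With 1 RPKM added to both values these were −0.96 and −1.16, short of the cutoff.

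BMP ligands were scarce in these cells. *Bmp4* (NM_007554, chr14:47003195-47010344), which promotes commitment of mesenchymal cells to adipocytes, was the single expressed member among *Bmp2* to *Bmp7*. It had 2.74 and 0.0873 RPKM at day 0 and day 2 with Ad-GFP (94 and 4 reads) and 11.6 and 0.779 RPKM with Ad-Cre (451 and 28 reads). The Ad-Cre library was the higher on each day, and both were lowest at day 2. Its log2 ratio between the cells was 2.08 (1.76 to 2.42) at day 0. The ratio of 3.16 (1.64 to 5.13) at day 2 rested on 4 reads with Ad-GFP and was 0.71 with 1 RPKM added to both values. In time the log2 ratio was −4.97 (−6.88 to −3.57) with Ad-GFP and −3.90 (−4.50 to −3.34) with Ad-Cre. *Bmp2* had 0 reads in every library, *Bmp3*, *Bmp5* and *Bmp7* had at most 4 reads, and *Bmp6* had 2 to 20 reads. *Gdf5*, *Gdf6* and *Gdf10* had at most 7 reads in a library.

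*Gdf11* (NM_010272, chr10:128319351-128328774), a ligand close to myostatin, was the highest of the BMP and GDF ligands in 3 of 4 libraries, with 18.0 and 5.65 RPKM at day 0 and day 2 with Ad-GFP and 25.0 and 11.6 RPKM with Ad-Cre. The lowest was the Ad-GFP library of day 2. Its log2 ratio of day 2 over day 0 was −1.68 (−1.90 to −1.45) with Ad-GFP and −1.11 (−1.29 to −0.93) with Ad-Cre, where the adjusted one was past the cutoff at −1.39. *Gdf15* (NM_011819, chr8:73153292-73156355), a stress-induced divergent ligand that signals through a receptor outside the family, had 1.29 and 6.50 RPKM with Ad-GFP (24 and 162 reads) and 2.79 and 2.56 RPKM with Ad-Cre (59 and 50 reads). The Ad-GFP library of day 2 was the high one. Its log2 ratio of day 2 over day 0 was 2.34 (1.71 to 3.02) with Ad-GFP and −0.13 (−0.70 to 0.44) with Ad-Cre, where the adjusted one was −1.22. Between the cells at day 2 it was −1.35 (−1.83 to −0.88), or −2.52 adjusted, −1.16 with TMM factors and −1.08 with 1 RPKM added.

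**Figure D4:**
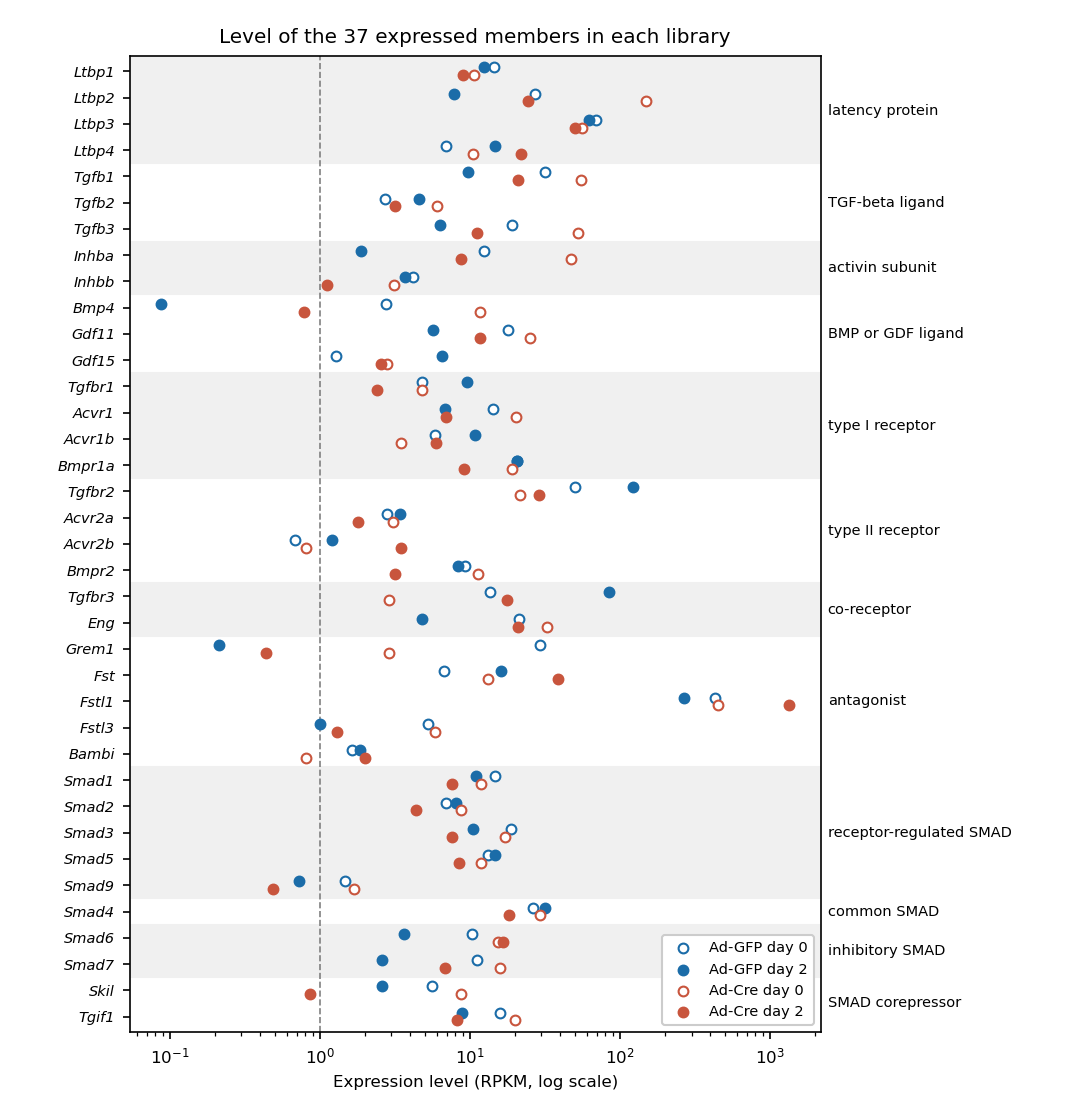
RPKM on a log scale (horizontal axis) of the 37 expressed genes, grouped by role, in Ad-GFP (blue) and Ad-Cre (red) cells at day 0 (open) and day 2 (filled). The dashed line is 1 RPKM, and *Fstl1* is the highest in every library, from 265 to 1347 RPKM.

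The TGF-beta receptor genes *Tgfbr1*, *Tgfbr2* and *Tgfbr3* were lower with Ad-Cre at day 2, while the co-receptor *Eng* was higher. *Tgfbr2* (NM_009371, chr9:115993415-116084383), the type II receptor of TGF-beta, had 50.5 and 123 RPKM at day 0 and day 2 with Ad-GFP and 21.4 and 28.9 RPKM with Ad-Cre. Both Ad-Cre libraries were below both Ad-GFP libraries. The log2 ratio between the cells at day 0 was −1.24 (−1.31 to −1.16), just short of the cutoff, and −2.09 (−2.15 to −2.02) at day 2, where the adjusted one was −1.63. *Tgfbr2* had 2.43-fold more at day 2 than at day 0 with Ad-GFP and 1.35-fold more with Ad-Cre, both short of the cutoff.

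*Tgfbr1* (NM_009370, chr4:47366094-47427803), the type I receptor that pairs with it, had 4.78 and 9.60 RPKM at day 0 and day 2 with Ad-GFP and 4.79 and 2.40 RPKM with Ad-Cre. The cells had the same level at day 0 (log2 ratio 0.00, −0.18 to 0.18). Day 2 was above day 0 with Ad-GFP (1.01, 0.85 to 1.16) and below it with Ad-Cre (−0.997, −1.22 to −0.78, or −0.34 adjusted). Between the cells at day 2 the log2 ratio was −2.00 (−2.20 to −1.80), and the adjusted one was −1.24, short of the cutoff.

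*Tgfbr3* (NM_011578, chr5:107535589-107718648), or betaglycan, which presents TGF-beta to the kinases, had 13.6 and 84.3 RPKM at day 0 and day 2 with Ad-GFP and 2.90 and 17.6 RPKM with Ad-Cre. It was 4.67-fold lower with Ad-Cre at day 0 (log2 ratio −2.22, −2.40 to −2.05) and 4.79-fold lower at day 2 (−2.26, −2.33 to −2.19, or −1.63 adjusted). Yet it was higher at day 2 than at day 0 by nearly the same factor in both, with 2.64 (2.56 to 2.72) on the log2 scale for Ad-GFP and 2.60 (2.43 to 2.77) for Ad-Cre. The interval of their difference ran from −0.22 to 0.15. The adjusted log2 ratios lay further apart, at 2.61 for Ad-GFP and 3.17 for Ad-Cre. *Eng* (NM_001146350, chr2:32502115-32538189), the co-receptor endoglin known from endothelial cells, had 21.3 and 4.81 RPKM with Ad-GFP and 32.6 and 21.0 RPKM with Ad-Cre, and the Ad-GFP library of day 2 was the low one. In time its log2 ratio was −2.14 (−2.31 to −1.98) with Ad-GFP and −0.63 (−0.73 to −0.54) with Ad-Cre. Between the cells at day 0 it was 0.62 (0.52 to 0.72), and at day 2 it was 2.13 (1.96 to 2.29), in libraries where 0 of 6 endothelial markers were expressed and each had at most 12 reads.

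Of the BMP receptors, *Bmpr1a* and *Bmpr2* were lowest in the Ad-Cre library of day 2. *Bmpr1a* (chr14:35223920-35316527), the type I receptor of BMP2 and BMP4 and the highest of the type I receptors in 3 of 4 libraries, had 20.7 and 20.6 RPKM at day 0 and day 2 with Ad-GFP and 19.0 and 9.12 RPKM with Ad-Cre. No ratio of *Bmpr1a* passed the cutoff. The log2 ratio to the last library was −1.18 (−1.29 to −1.07) from Ad-GFP cells of day 2 and −1.06 (−1.17 to −0.94) from Ad-Cre cells of day 0, and the adjusted ones were −0.42 and −0.40. *Bmpr2* (NM_007561, chr1:59821481-59927703), the type II receptor of BMPs, had 9.33 and 8.34 RPKM with Ad-GFP and 11.4 and 3.18 RPKM with Ad-Cre. Its log2 ratio to the last library was −1.84 (−2.07 to −1.62) from Ad-Cre cells of day 0 and −1.39 (−1.63 to −1.16) from Ad-GFP cells of day 2, the latter −0.81 adjusted. *Acvr1* (NM_001110204, chr2:58241055-58419568), the type I receptor ALK2, had 14.2 and 6.85 RPKM with Ad-GFP and 20.2 and 6.98 RPKM with Ad-Cre. From day 0 to day 2 its log2 ratio was −1.06 (−1.22 to −0.89) with Ad-GFP and past the cutoff with Ad-Cre (−1.54, −1.70 to −1.38), and the cells were at 0.03 (−0.16 to 0.22) from each other at day 2.

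*Acvr1b*, the type I receptor of activin, had 1.84-fold more at day 2 with Ad-GFP and 1.73-fold more with Ad-Cre, and passed the cutoff in no comparison. *Acvr2a*, a type II receptor of activin, stayed between 1.79 and 3.41 RPKM and passed no cutoff either, and its log2 ratio of −0.93 between the cells at day 2 was −0.14 adjusted. *Acvr2b* (NM_007397, chr9:119311562-119342619), its close relative, had 0.684 and 1.20 RPKM at day 0 and day 2 with Ad-GFP (20 and 47 reads) and 0.814 and 3.46 RPKM with Ad-Cre (27 and 106 reads). The Ad-Cre library of day 2 was the high one. The log2 ratio to it was 2.09 (1.47 to 2.75) from Ad-Cre cells of day 0 and 1.52 (1.02 to 2.05) from Ad-GFP cells of day 2. The transcript has 1701 bases with 62.0% GC, and the adjusted ratios were 1.23 and 0.50, short of the cutoff. *Acvrl1* and *Bmpr1b*, the type I receptors ALK1 and ALK6, were not expressed by the threshold, with at most 0.690 RPKM and at most 1.59 RPKM, the latter in Ad-Cre cells of day 0 (166 reads).

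Of the secreted antagonists, *Grem1* passed the cutoff between the cells at day 0 and *Fstl1* at day 2. *Grem1* (NM_011824, chr2:113586321-113598803), or gremlin, which binds BMP2, BMP4 and BMP7, had 29.4 and 0.212 RPKM at day 0 and day 2 with Ad-GFP (828 and 8 reads) and 2.88 and 0.440 RPKM with Ad-Cre (92 and 13 reads). A high level was seen in the Ad-GFP library of day 0 alone. At day 0 the Ad-Cre library had 10.2-fold less (log2 ratio −3.35, −3.68 to −3.04), and at day 2 the ratio of 1.05 had an interval from −0.33 to 2.53. From day 0 to day 2 the log2 ratio was −7.11 (−8.33 to −6.13) with Ad-GFP and −2.71 (−3.67 to −1.86) with Ad-Cre, which started lower.

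*Fstl1* (NM_008047, chr16:37776959-37836600), a secreted follistatin-like protein made by mesenchymal cells, was the most abundant of the 49 in every library. It had 432 and 265 RPKM at day 0 and day 2 with Ad-GFP and 454 and 1347 RPKM with Ad-Cre. At day 0 the cells were 0.07 (0.05 to 0.09) apart on the log2 scale, and at day 2 the Ad-Cre library was the highest by far (2.34, 2.32 to 2.37). From day 0 to day 2 the log2 ratio was −0.70 (−0.73 to −0.68) with Ad-GFP and 1.57 (1.55 to 1.59) with Ad-Cre. *Fst* (NM_008046, chr13:115242470-115249159), or follistatin, which binds activin, had 6.72 and 16.2 RPKM with Ad-GFP and 13.2 and 38.9 RPKM with Ad-Cre. Day 2 was above day 0 in both, 2.41-fold with Ad-GFP and, past the cutoff, 2.95-fold with Ad-Cre. Between the cells at day 2 its log2 ratio of 1.27 (1.15 to 1.39) was short of the cutoff, and passed it with TMM factors (1.45) and as the adjusted ratio (1.61).

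*Fstl3* (NM_031380, chr10:79240017-79245375), another activin-binding protein, had 5.24 and 1.00 RPKM at day 0 and day 2 with Ad-GFP (176 and 45 reads) and 5.83 and 1.31 RPKM with Ad-Cre (222 and 46 reads). It was lower at day 2 in both (log2 ratios −2.39, −2.89 to −1.91, and −2.16, −2.65 to −1.69). *Prss57* on the opposite strand overlaps 47.3% of its exon bases, so reads of the 2 genes could not be separated. *Bambi*, a pseudoreceptor without kinase activity, stayed between 0.814 and 1.99 RPKM. Its log2 ratio of day 2 over day 0 with Ad-Cre was 1.29 (0.90 to 1.69), short of the cutoff, and passed it with TMM factors (1.33) and as the adjusted ratio (1.86). *Nog* and *Chrd*, noggin and chordin, which bind BMPs, were not expressed by the threshold, and *Nog* had 8 and 16 reads with Ad-GFP against 61 and 35 with Ad-Cre.

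Of the receptor-regulated SMADs and SMAD4, *Smad9* alone passed the cutoff. In the order Ad-GFP day 0, Ad-GFP day 2, Ad-Cre day 0 and Ad-Cre day 2, the BMP-regulated *Smad1* had 14.6, 10.9, 11.9 and 7.54 RPKM, *Smad5* had 13.3, 14.7, 11.9 and 8.44 RPKM, and *Smad9* had 1.46, 0.729, 1.68 and 0.486 RPKM. Of the SMADs of TGF-beta and activin, *Smad2* had 6.92, 8.07, 8.77 and 4.36 RPKM, and *Smad3* had 18.8, 10.5, 17.1 and 7.64 RPKM. *Smad4*, the partner of them all, had 26.4, 31.7, 29.1 and 18.1 RPKM. In each of these 6 genes the Ad-Cre library of day 2 was the lowest of the 4. The ratio past the cutoff was that of *Smad9* (NM_019483, chr3:54559504-54605179) from day 0 to day 2 with Ad-Cre (−1.79, −2.29 to −1.32), which rested on 47 reads at day 2 and was −0.85 with 1 RPKM added and −1.32 adjusted. At day 2, the log2 ratios between the cells ran from −0.89 in *Smad2* to −0.45 in *Smad3*. The adjusted ones ran from −0.61 in *Smad4* to 0.03 in *Smad5*, with *Smad2* at −0.27. Of the 50-base windows of *Smad5*, 7.51% also match elsewhere in the genome, which was at most 2.05% for the others of the 49.

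The inhibitory SMADs did pass the cutoff. *Smad6* (NM_008542, chr9:63800953-63869866), which acts mainly on BMP signals, had 10.4 and 3.62 RPKM at day 0 and day 2 with Ad-GFP and 15.3 and 16.7 RPKM with Ad-Cre. The Ad-GFP library of day 2 stood alone at the low end. Its log2 ratio of day 2 over day 0 was −1.52 (−1.74 to −1.30) with Ad-GFP, or −1.28 adjusted and short of the cutoff, and 0.12 (−0.02 to 0.26) with Ad-Cre. The difference between these was 1.64 (1.38 to 1.90). Between the cells the log2 ratio at day 0 was 0.56 (0.41 to 0.72), and that at day 2 was 2.20 (2.00 to 2.41), or 1.53 adjusted.

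*Smad7* (NM_001042660, chr18:75527183-75555589), which acts on TGF-beta and BMP signals alike, had 11.1 and 2.58 RPKM at day 0 and day 2 with Ad-GFP and 15.9 and 6.87 RPKM with Ad-Cre. As for *Smad6*, the Ad-GFP library of day 2 was the lowest. Its log2 ratio of day 2 over day 0 was past the cutoff with Ad-GFP (−2.10, −2.31 to −1.90) and short of it with Ad-Cre (−1.22, −1.36 to −1.07). Between the cells at day 2 it was 1.41 (1.20 to 1.63), but 1.28 adjusted and 1.14 with 1 RPKM added, both short of the cutoff. *Skil* (NM_011386, chr3:30993980-31021499), or SnoN, a corepressor that is itself a target of TGF-beta, had 5.59 and 2.60 RPKM with Ad-GFP and 8.78 and 0.859 RPKM with Ad-Cre. The low library was that of Ad-Cre at day 2, where the log2 ratio to day 0 was −3.35 (−3.66 to −3.06), or −2.60 adjusted, against −1.10 (−1.29 to −0.92) with Ad-GFP. Between the cells at day 2 it was −1.60 (−1.93 to −1.29), but −0.78 adjusted. *Tgif1*, a homeodomain corepressor of SMADs, had 16.0 and 8.89 RPKM with Ad-GFP and 19.9 and 8.18 RPKM with Ad-Cre. No ratio of it passed the cutoff, and the adjusted log2 ratio of day 2 over day 0 with Ad-Cre did (−1.50, against −1.28).

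Over all 37 expressed genes, the log2 ratio of day 2 over day 0 was greater with Ad-Cre than with Ad-GFP for 10 and smaller for 19, and for 8 the interval of the difference held 0. The median difference was −0.23, against −0.11 over all expressed genes. These counts are of ratios not divided by the trends, and the same counts over all expressed genes were not taken. The adjusted log2 ratios of *Tgfb1* were −1.57 with Ad-GFP and −2.11 with Ad-Cre, the reverse of the order counted. For *Smad5* the order was also reversed, with adjusted ratios of 0.06 and 0.25. Other differences shrank without a reversal. Adjusted ratios with Ad-GFP and Ad-Cre were 0.08 and −0.05 for *Acvr2a*, −0.17 and −0.40 for *Bmpr1a*, and 1.09 and 1.23 for *Acvr2b*. Some grew, as for *Inhbb* (0.08 and −1.78) and *Bambi* (0.04 and 1.86). The split of the counts was not taken again on adjusted ratios. *Grem1* had the greatest difference, 4.40 (3.09 to 5.71), and *Gdf15* the lowest, −2.46 (−3.28 to −1.64). *Skil* followed with −2.25 (−2.59 to −1.91).

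A list of 31 genes commonly used as targets of TGF-beta or BMP signals was followed beside these genes, and 27 of the 30 found were expressed. With Ad-GFP 0 of the 27 were past the cutoff upward at day 2 and 14 were past it downward, beside 8.38% and 12.7% of all expressed genes, with a median log2 ratio of −1.49 against 0.15 over all expressed genes. With Ad-Cre 4 were higher and 10 lower at day 2, beside 8.66% and 10.0%, and the median was −0.48 against −0.01. Between the cells, 7 were higher and 2 lower with Ad-Cre at day 0, beside 1.27% and 4.12%, with a median of 0.51 against −0.02. At day 2, 15 were higher and 1 lower, beside 8.14% and 10.1%, with a median of 1.69 against −0.16. By adjusted ratios, which 26 of the 27 have, 11 were higher and 0 lower at day 2, with a median of 1.18. The list shares *Acta2*, *Tagln* and *Cnn1* with the smooth muscle markers, and its genes answer to many other signals.

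Several of these targets encode matrix or cytoskeletal proteins. The matricellular *Ctgf* (*Ccn2*) had 23.2 and 0.453 RPKM at day 0 and day 2 with Ad-GFP and 145 and 1.69 RPKM with Ad-Cre, and its relative *Cyr61* (*Ccn1*) had 55.7 and 4.01 RPKM and 207 and 20.04 RPKM. Both were higher with Ad-Cre at day 0, with log2 ratios of 2.64 (2.54 to 2.74) and 1.89, and lower at day 2 in both kinds of cells. *Acta2*, smooth muscle actin, had 770 and 17.5 RPKM with Ad-GFP and 2428 and 247 RPKM with Ad-Cre, and the log2 ratio between the cells at day 0 was 1.66 (1.64 to 1.68), that at day 2 being 3.82 (3.71 to 3.94). The actin-binding *Tagln* had 319 and 7.16 RPKM with Ad-GFP and 654 and 94.4 RPKM with Ad-Cre, and *Cnn1* had 28.8 and 0.766 RPKM and 105 and 12.2 RPKM. Like *Acta2*, both were lower at day 2 in both kinds of cells and higher with Ad-Cre at day 2. *Tgfbi*, a TGF-beta-induced matrix protein, ran the other way at day 0, with 38.9 RPKM with Ad-GFP and 4.33 RPKM with Ad-Cre (log2 ratio −3.17, −3.37 to −2.97), and was at 1.40 and 0.683 RPKM at day 2.

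The genes of type I collagen and fibronectin were lower at day 2 in both kinds of cells, while *Col3a1*, of type III collagen, passed the cutoff in no comparison. *Col1a1* had 1246.5 and 65.8 RPKM at day 0 and day 2 with Ad-GFP and 1010 and 142 RPKM with Ad-Cre. *Col1a2*, which encodes the other chain of type I collagen, had 249 and 22.5 RPKM with Ad-GFP and 403 and 110 RPKM with Ad-Cre, and was higher with Ad-Cre at day 2 (log2 ratio 2.29). *Fn1*, fibronectin, had 479 and 126 RPKM with Ad-GFP and 550 and 100.2 RPKM with Ad-Cre, and passed the cutoff in time only, not between the cells.

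Targets known for BMP signals were not alike. *Id1*, the usual readout of SMAD1 and SMAD5, had 18.2 and 32.5 RPKM at day 0 and day 2 with Ad-GFP and 22.5 and 27.2 RPKM with Ad-Cre, and passed the cutoff in no comparison. Its log2 ratio of −0.26 between the cells at day 2 was −1.03 adjusted. *Id3*, from the same family of inhibitors of basic helix-loop-helix factors, had 125 and 44.5 RPKM with Ad-GFP and 169 and 161 RPKM with Ad-Cre, and was past the cutoff toward Ad-Cre at day 2 (log2 ratio 1.86, 1.75 to 1.97), though not as the adjusted ratio (1.00). From day 0 to day 2 with Ad-GFP its log2 ratio of −1.49 was −1.30 adjusted, short of the cutoff. *Id4* had 1.72 and 1.76 RPKM with Ad-GFP and 5.28 and 31.9 RPKM with Ad-Cre, and was past it on both days, though at day 0 not with 1 RPKM added (1.21). *Hey1*, also a Notch target, had 2.14 and 2.56 RPKM with Ad-GFP and 37.5 and 19.4 RPKM with Ad-Cre, 17.6-fold more at day 0 and 7.56-fold more at day 2. *Atoh8* and *Msx1*, transcription factors induced by BMPs, were at 10.996 and 7.03 RPKM with Ad-GFP and at 43.2 and 20.6 RPKM with Ad-Cre at day 2, past the cutoff between the cells and, with Ad-Cre, also from day 0. The adjusted log2 ratios between the cells were 1.26 and 0.94, short of it.

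*Pmepa1*, *Junb*, *Snai1* and *Snai2* were higher with Ad-Cre at day 2, and *Zeb1* was lower. *Pmepa1*, which inhibits the pathway by binding SMAD2 and SMAD3, had 21.3 and 7.23 RPKM at day 0 and day 2 with Ad-GFP and 43.0 and 52.5 RPKM with Ad-Cre (log2 ratio 2.86, 2.75 to 2.97, at day 2). *Junb*, an AP-1 subunit, had 60.1 and 14.9 RPKM with Ad-GFP and 46.9 and 57.8 RPKM with Ad-Cre. *Snai1* and *Snai2*, repressors known from epithelial-mesenchymal transition, were at 41.5 and 13.1 RPKM with Ad-GFP and at 158 and 42.4 RPKM with Ad-Cre at day 2, log2 ratios of 1.93 and 1.69. The adjusted ratios of *Junb* and *Snai1* were 0.96 and 0.99, short of the cutoff. At day 0 these 4 genes were short of the cutoff between the cells. *Zeb1*, a repressor of epithelial genes, was the 1 target lower with Ad-Cre at day 2, with 19.1 and 6.21 RPKM and a log2 ratio of −1.62, but −0.92 adjusted. Of the cell cycle genes, *Ccnd1*, cyclin D1, was lower with Ad-Cre at day 0 (19.0 and 2.92 RPKM), and *Cdkn1a*, the inhibitor p21, was higher (41.0 and 107 RPKM). At day 2 *Ccnd1* had 0.676 RPKM with Ad-GFP and 0.847 RPKM with Ad-Cre. Its log2 ratio from day 0 to day 2 was −4.81 with Ad-GFP and −1.78 with Ad-Cre, the latter −1.08 with 1 RPKM added. *Cdkn2b*, the inhibitor p15, was past the cutoff from day 0 to day 2 with Ad-Cre alone (18.1 and 57.8 RPKM, log2 ratio 1.67), though not as the adjusted ratio (1.04). *Runx2*, a factor of bone formation, was lower at day 2 with Ad-GFP (9.46 and 3.12 RPKM).

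**Figure D5:**
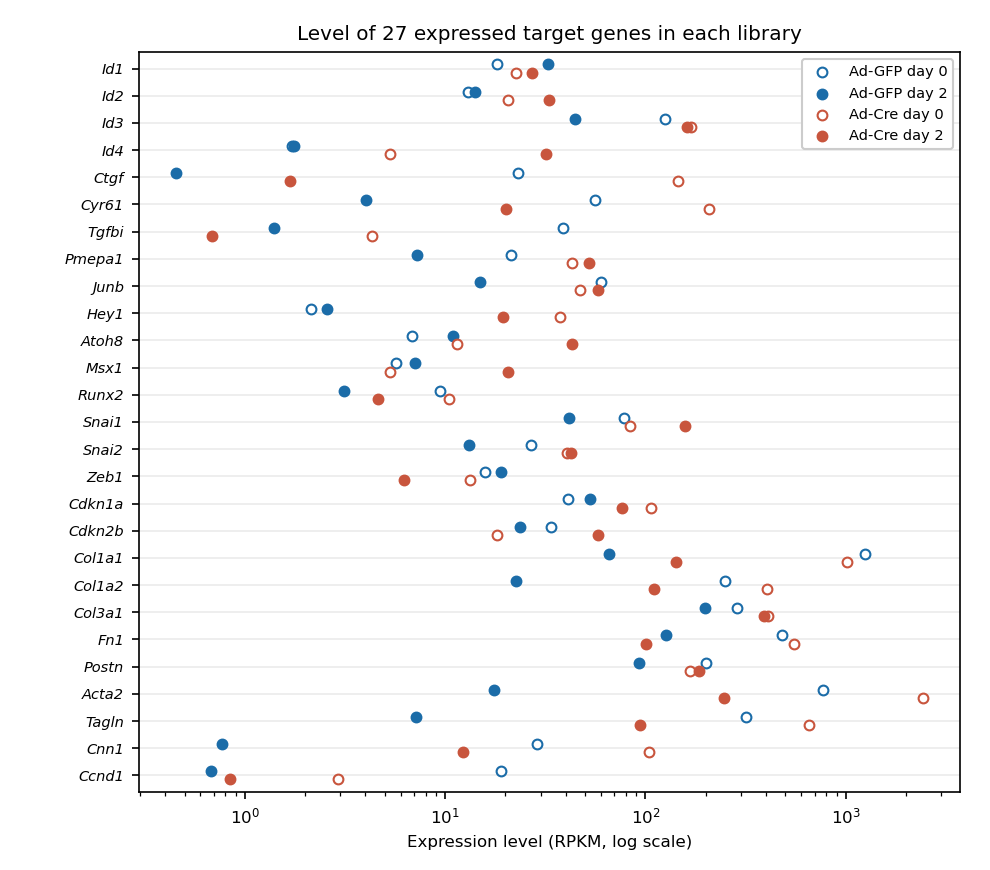
RPKM on a log scale (horizontal axis) of the 27 expressed target genes in Ad-GFP (blue) and Ad-Cre (red) cells at day 0 (open) and day 2 (filled). *Acta2* is the highest point of Ad-Cre cells at day 0 with 2428 RPKM, and filled blue points lie left of open blue points for most genes.

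Among 57 other genes of the pathway, 30 were expressed. With Ad-GFP 2 were higher and 7 lower at day 2, beside 8.38% and 12.7% of all expressed genes, and with Ad-Cre 3 were higher and 5 lower, beside 8.66% and 10.0%. *Thbs1*, thrombospondin 1, which activates latent TGF-beta, had 134 and 5.35 RPKM at day 0 and day 2 with Ad-GFP and 595 and 13.1 RPKM with Ad-Cre. It was the 1 gene of the 30 past the cutoff toward Ad-Cre at day 0 (log2 ratio 2.15, 2.12 to 2.18), beside 1.27%, and 2 were past it toward Ad-GFP, beside 4.12%, *Rgma*, a BMP co-receptor (41.1 and 12.6 RPKM), and *Dcn*, which had under 100 reads. At day 2 the log2 ratio of *Thbs1* between the cells was 1.29, short of the cutoff, and passed it with TMM factors (1.48) and as the adjusted ratio (1.75). *Lrrc32*, which anchors latent TGF-beta on the cell surface, was lower at day 2 in both, by 17.8-fold with Ad-GFP and 18.2-fold with Ad-Cre. These values rested on 39 and 13 reads at day 2, and with 1 RPKM added the log2 ratios were −2.62 and −1.90. Between the cells at day 2 the log2 ratio of *Lrrc32* was −1.23, short of the cutoff, and passed it as the adjusted ratio (−1.43). *Itgav*, an integrin subunit that activates TGF-beta, was lower at day 2 in both too, by 2.70-fold and 10.3-fold (log2 ratio −3.36 with Ad-Cre, or −2.67 adjusted). *Crim1*, a BMP antagonist, was also lower at day 2 in both, by 3.50-fold with Ad-GFP and by 4.25-fold with Ad-Cre. *Bmper*, a secreted BMP-binding protein, was higher at day 2 in both, by 8.12-fold with Ad-GFP and 7.83-fold with Ad-Cre.

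At day 2, 3 of the 30 were higher with Ad-Cre and 2 lower, beside 8.14% and 10.1% of all expressed genes, shares near those of the 30. *Nbl1*, a BMP antagonist, had 34.3 and 7.63 RPKM at day 0 and day 2 with Ad-GFP and 39.4 and 68.2 RPKM with Ad-Cre (log2 ratio 3.16, 2.99 to 3.34, at day 2, or 2.163 adjusted). *Fbn2*, a fibrillin of the microfibrils that hold LTBPs and BMPs, had 33.3 and 6.56 RPKM with Ad-GFP and 23.7 and 26.2 RPKM with Ad-Cre (2.00, 1.92 to 2.08, at day 2), while *Fbn1* was past the cutoff with Ad-GFP in time alone (108 and 40.4 RPKM). *Gdf1*, which shares its transcript with *Cers1*, had 3.03 and 5.65 RPKM with Ad-GFP and 3.25 and 21.5 RPKM with Ad-Cre, a log2 ratio between the cells of 1.92 at day 2, but 1.20 adjusted, and reads of the 2 genes could not be separated. *Hipk2*, a kinase that binds SMADs, and *Usp15*, a deubiquitinase of receptor-regulated SMADs, were lower with Ad-Cre at day 2, by 2.51-fold and 2.93-fold. The call of *Hipk2* ended with TMM factors (log2 ratio −1.14) and as the adjusted ratio (−1.14), and that of *Usp15* as the adjusted ratio (−1.10). *Hipk2* was also higher at day 2 with Ad-GFP (2.76-fold), and *Smurf1*, a ubiquitin ligase for SMADs and receptors, was lower at day 2 with Ad-Cre (2.52-fold, log2 ratio −1.33), a call that ended with TMM factors (−1.29) and as the adjusted ratio (−1.18).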

How the data were processed

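RNA-Seq of brown preadipocytes was used, with 1 library per condition. The authors sequenced 50-base reads with the Illumina pipeline, aligned them to NCBI37/mm9 and collected reads on exons of RefSeq transcripts. The submitters' processing notes name bedtools 2.16 and SICER 1.1. For each transcript the authors deposited a raw read count and its RPKM, which divides the count by exon length and mapped reads. The treatment of strand and of reads with several matches is not given in the sources used here.

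Ratios of the deposited RPKM were taken without a pseudocount between 29082 transcripts reduced to 1 per symbol, that with most reads. Calls used the study's thresholds, 2.5-fold and, with Ad-GFP, an RPKM above 1 on either day. Exact binomial 95% intervals (Clopper-Pearson, scipy 1.17.1) cover counting error only. No test between conditions was possible with 1 library each. TMM factors came from edgeR 4.0.16 in R 4.3.3, with no edgeR test. Trends over length and GC content (known for 93.4% of expressed genes and all 49 described) were medians of 20 bins in 5 rounds. Coordinates and overlaps are those of GENCODE vM1 on NCBI37/mm9, symbols and promoters those of RefSeq on GRCm38.p6. Promoters were found for 34 of the 49. None was found for *Acvrl1*, *Bambi*, *Bmp2*, *Bmp3*, *Bmp7*, *Fst*, *Gdf5*, *Gdf6*, *Nog*, *Skil*, *Smad2*, *Smad4*, *Smad7*, *Tgfb3* and *Tgfbr3*. Exon windows of 50 bases were searched with blastn 2.17.0, allowing 2 mismatches. Scripts ran in Python 3.11.15 with pandas 2.3.3, numpy 2.4.6 and matplotlib 3.10.9. The ratios, intervals and calls were run on simulated counts with counting error only, for genes with a mean of at least 100 reads. That run held no variation between replicates and no trend over length or GC, so it does not cover these.

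The genes described, the lists of targets, other pathway genes and markers, the tests and the 8 alternative settings were chosen with earlier results of these data known. Values in every library are given for genes past the cutoff with at least 100 reads in a library compared, for the highest gene of each role and for the SMADs. Targets and other pathway genes are named where they meet the first of these, and markers are given by counts and sums. *Id1*, *Col3a1*, *Dcn* and *Kmt2d* were named after their values were seen. Of the lists, 2 genes are not reported here and were left out of their counts and medians.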

Additional observations from a re-analysis of the deposited data

Results flagged for a closer look

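In 7 of the 37 expressed genes the level went up from day 0 to day 2 in cells of one kind and down in the other, with both intervals of counting error clear of 0. The same count over all expressed genes was not taken, so whether 7 of 37 is unusual cannot be said. With 1 library per condition the difference between the cells was not tested against replicates. The log2 ratio of day 2 to day 0 in Ad-Cre cells minus that in Ad-GFP cells was 2.27 for *Fstl1*, the only one of the 7 that went up in Ad-Cre cells. It was −2.00 for the TGF-beta type I receptor *Tgfbr1*, −1.70 for the ligand *Tgfb2*, −1.23 for *Smad2*, −1.07 for the activin receptor *Acvr2a*, −0.95 for *Smad4* and −0.64 for *Smad5*. All 6 of these went up in Ad-GFP cells and down in Ad-Cre cells. They were long transcripts, from 3341 bases in *Smad4* to 8752 in *Smad2*, and the Ad-Cre library of day 2 had lower ratios in long transcripts. *Fstl1*, which went the other way, has 3609 bases and is longer than *Smad4*. The part of length in these values was not tested beyond the division by length and GC. After it the log2 ratio of day 2 to day 0 in Ad-Cre cells was −0.34 for *Tgfbr1*, −0.47 for *Tgfb2*, −0.30 for *Smad2* and −0.47 for *Smad4*. It was −0.05 for *Acvr2a*, whose adjusted ratio in Ad-GFP cells was 0.08, and 0.25 for *Smad5*. Adjusted ratios have no interval, so whether they are clear of 0 was not tested.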

How the results depend on the processing

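No paired analysis was possible because each condition has 1 library, and for the same reason no library could be left out in turn. Counts of genes past the cutoff are given as reported and then under the setting. Without the filter on low values, those higher in Ad-Cre cells at day 0 went from 4 to 7 and those lower from 2 to 4, and those higher at day 2 from 8 to 13. With a cutoff of 2-fold, those higher at day 2 in Ad-GFP cells went from 2 to 6, and those lower in Ad-Cre cells at day 0 from 2 to 4. With 1 RPKM added to both values, those higher in Ad-Cre cells at day 2 went from 8 to 5 and those lower from 7 to 3. Requiring the bound of the interval to pass the cutoff, or dividing by trends over length and GC, left 4 of the 7 lower at day 2. The division by length alone turned the median log2 ratio between the cells at day 2 from −0.30 to 0.0946. The cause was not tested. All other counts stayed within 1.5 times the reported ones. The calls kept under every scaling were 12 of 13 from day 0 to day 2 in Ad-GFP cells, 13 of 16 in Ad-Cre cells, 6 of 6 between the cells at day 0 and 7 of 15 at day 2. The depth limits *Bmp4* and *Grem1* at day 2 in Ad-GFP cells, with 4 and 8 reads.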
